A study of Mus musculus with 16 samples.

Results

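The results concern 8 keratin genes measured in mouse colon organoids, small cultured spheres of colon epithelium: Krt7, Krt8, Krt18, Krt19, Krt20, Krt23, Krt36 and Krt84. They were taken by symbol from the 18850 named genes on the array, and where a gene had several probe sets, one was to be selected on brightness, the mean signal over 16 arrays. Each of the 8 genes had 1 probe set, so these values made no choice, and all 8 passed the filter on dim genes. The genes were listed with earlier results of these arrays known, so the differences given for them describe these samples and are not independent evidence. RNA from 16 samples was hybridised to 1 array each, in 4 groups of 4. These were untreated wild-type (WT) organoids, WT organoids exposed for 12 h to recombinant tumour necrosis factor alpha (TNFa) at 50 ng/ml, untreated mutant organoids, and mutant organoids exposed to the same TNFa. The labels name altered alleles of both Atf2 and Atf7 in the mutant but contradict each other: the titles read ATF2/7 fl, the descriptions give ATF2 as knocked out and ATF7 as floxed, and the genotype field reads ATF2 fl/fl / ATF7 KO. No label names a Cre driver or says that a floxed allele was recombined, and none gives strain, age or the number of mice. Every group grew in ENR medium. The samples are numbered within each group, and nothing says that they came from separate animals or cultures, and a p-value here measures only how these samples spread, which may be technical.

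Keratins are the intermediate filament proteins of epithelia. A filament is built from pairs of 1 type I and 1 type II keratin, so neither type polymerises alone. In simple epithelia such as the colon the type II keratins Krt8 and Krt7 pair with the type I keratins Krt18, Krt19 and Krt20, and mice that lack Krt8 develop colitis. Krt20 marks differentiated colonocytes near the lumen. Krt23 is a type I keratin of low abundance in normal gut, and Krt36 (type I) and Krt84 (type II) belong to the hair keratins, known from hair, nail and the papillae of the tongue. ATF2 and ATF7 are transcription factors that bind cyclic AMP response elements (CRE) and, as partners of JUN, related AP-1 sites. TNFa activates NF-kB.

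The promoters of the 3 genes that differed by genotype are shown because these factors act through short DNA sites. Each is the stretch of 250 bases before the RefSeq transcription start in the mouse assembly GRCm38.p6, written 5′ to 3′ on the strand of the gene, with motif matches in capitals. The genome build behind the arrays' own annotation is unknown here. The windows are chr11:100105627-100105876 on the minus strand for Krt36, chr15:101532821-101533070 on the minus strand for Krt84 and chr11:99493121-99493370 on the minus strand for Krt23.
Krt36: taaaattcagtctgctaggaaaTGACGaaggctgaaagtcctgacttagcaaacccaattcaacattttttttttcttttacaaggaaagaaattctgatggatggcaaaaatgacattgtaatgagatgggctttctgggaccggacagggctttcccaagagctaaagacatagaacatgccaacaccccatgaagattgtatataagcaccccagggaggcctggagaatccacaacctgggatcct
Krt84: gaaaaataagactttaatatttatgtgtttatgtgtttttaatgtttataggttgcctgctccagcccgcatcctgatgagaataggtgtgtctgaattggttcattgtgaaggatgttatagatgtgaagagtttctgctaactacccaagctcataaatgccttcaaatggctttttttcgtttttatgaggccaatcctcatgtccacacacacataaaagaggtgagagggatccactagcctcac
Krt23: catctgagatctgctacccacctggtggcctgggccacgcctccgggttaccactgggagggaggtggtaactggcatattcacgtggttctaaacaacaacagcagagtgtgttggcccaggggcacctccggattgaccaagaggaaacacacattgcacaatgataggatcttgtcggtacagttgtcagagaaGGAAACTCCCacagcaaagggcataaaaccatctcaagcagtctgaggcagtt

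The windows were searched on both strands for the full CRE (TGACGTCA), its core (TGACG, which lies inside the full site), the AP-1 site (TGANTCA) and the NF-kB consensus. Krt36 held a CRE core 228 to 224 bases before the start, a motif found in 17.8% of 32851 RefSeq promoter windows of that length. Krt23 held an NF-kB consensus match, GGAAACTCCC, 53 to 44 bases before the start, and 7.25% of all windows held one. The Krt84 window held none of the 4 motifs, which says only that these letters are not in this stretch. Of the 5 simple epithelial keratins, 4 had an entry in the promoter table, and among these Krt18 held an NF-kB consensus match 47 to 38 bases before the start. The full CRE is in 1.55% and the AP-1 site in 6.75% of all windows, and none of the 7 keratin windows searched held either. A match is a string of letters and was not tested as a binding site.

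Signals are log2 values, and a gene was called dim on an array where it lay below the 40th percentile of that array, between 6.40 and 6.56 log2. Of 18850 genes, 11766 were above it on at least 4 arrays and were tested. Array medians ran from 7.02 to 7.11 log2. Array WT + TNFa 2 stood apart, correlating on average at 0.9885 with its group, where the other 3 arrays reached 0.9926 to 0.9934, and no pair of arrays was identical. All 8 epithelial markers on the array, the adhesion gene Epcam and the E-cadherin gene Cdh1 among them, were above the dim range on all 16 arrays. The 5 direct TNFa targets used to check the treatment labels rose in both genotypes, with Tnfaip3 higher by 1.94 log2 in WT. Atf2 mRNA differed by −0.02 log2 between mutant and WT (95% interval −0.15 to 0.11, limma, Benjamini-Hochberg adjusted p = 0.942). Which part of Atf2 this probe set reads is unknown here, so the value checks neither allele, and Atf7 had no named probe set. A group difference in a bulk sample can come from the share of cells that express a gene or from the RNA per cell, and these cannot be told apart here.

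Of the 8 keratins, Krt23, Krt36 and Krt84 differed between the genotypes and the 5 keratins of simple epithelium did not pass the test in any comparison. Calls are from limma at a Benjamini-Hochberg adjusted p under 0.05 over all tested genes. For TNFa in WT, 1 keratin was higher (Krt36) and 0 were lower, where 10.8% of all tested genes were called, 5.03% higher and 5.75% lower. The groups did not overlap for 2 keratins (Krt7 and Krt36), against 14.2% of all genes. For TNFa in mutant, 0 were higher and 1 was lower (Krt84), where 5.98% of all genes were called, 3.51% higher and 2.47% lower, and the groups did not overlap for 1, against 13.9%. Between genotypes without TNFa, 3 were higher in mutant (Krt23, Krt36 and Krt84) and 0 lower, where 2.48% of all genes were called, 1.00% higher and 1.48% lower, and the same 3 did not overlap, against 9.34%. With TNFa, 2 were higher in mutant (Krt23 and Krt36) and 0 lower, where 2.69% of all genes were called, 1.56% higher and 1.13% lower, and 3 did not overlap (Krt84 in addition), against 8.89%. The difference of the TNFa effects called 0 keratins, with 2 at an unadjusted p under 0.05, and 0.00850% of all genes, which is 1 gene. The median change of the 8 keratins was 0.08, 0.04, 0.09 and 0.01 log2 in the first 4 comparisons in turn, and that of all tested genes 0.01, 0.01, −0.01 and 0.00. Without array WT + TNFa 2 the numbers of keratins called were the same in all 5 comparisons. Without mutant 2, the highest untreated mutant array for all 3 genes, the count was 1 (Krt36) between genotypes without TNFa and 0 for TNFa in mutant, with Krt84 no longer bright enough to be tested. Other arrays that decide a call are named with each gene. Because the genes were listed with results known and Krt84 passed the filter only through its high group, nothing is read from these counts.

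The 5 simple epithelial keratins were bright on all 16 arrays and differed little between the groups. With 0 of them called by limma, the number at an unadjusted p under 0.05 was 1 for TNFa in WT (Krt7), 1 between genotypes without TNFa (Krt7), 1 between genotypes with TNFa (Krt20), 0 for TNFa in mutant and 0 for the difference of the TNFa effects. The 95% intervals of all 5 genes lay between −0.13 and 0.34 log2 for TNFa in WT and between −0.15 and 0.30 for TNFa in mutant. For mutant minus WT they lay between −0.35 and 0.28 without TNFa and between −0.39 and 0.14 with it.

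Krt8, the main type II keratin of the colon, gave 12.65, 12.69, 12.66 and 12.61 log2 on WT arrays 1 to 4 and 12.60, 12.58, 12.63 and 12.67 in WT with TNFa. It gave 12.66, 12.65, 12.62 and 12.66 in mutant and 12.66, 12.62, 12.66 and 12.59 in mutant with TNFa. The 4 groups overlapped throughout, and the largest of the 4 simple differences was −0.03 log2, for TNFa in WT (SE 0.05, adjusted p = 0.739). The spread of Krt8 within groups, 0.033 log2, was smaller than that of all but 0.348% of tested genes, against a median gene of 0.121. Only 8 to 17 probe sets per array were brighter than Krt8, and the brightest on each array lay between 12.86 and 12.94 log2. Whether a ceiling of the array narrows differences at this level was not tested.

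Krt18, the usual type I partner of Krt8, gave 11.95, 11.90, 11.88 and 11.90 log2 in WT and 11.85, 11.92, 12.01 and 12.01 in WT with TNFa. Its values were 11.88, 12.01, 11.92 and 11.89 in mutant and 11.91, 11.84, 11.96 and 11.86 in mutant with TNFa, so all groups overlapped. The log2 difference Krt18 minus Krt8 within an array, whose level also depends on the probes, was −0.75 ± 0.04 (SD, 4 arrays) in WT and −0.68 ± 0.05 in WT with TNFa. It was −0.72 ± 0.07 in mutant without TNFa and −0.74 ± 0.04 in mutant with it. Krt19, a type I keratin that lacks most of the tail domain, gave 12.15, 12.21, 12.12 and 12.07 log2 in WT and 12.11, 12.21, 12.23 and 12.30 in WT with TNFa. It gave 12.14, 12.21, 12.08 and 12.15 in mutant and 12.19, 12.21, 12.22 and 12.18 in mutant with TNFa, again with overlap. Adjusted p for Krt18 and Krt19 ran from 0.437 to 0.976 in the 4 simple comparisons.

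Krt7, a type II keratin better known from ducts, was lowest in untreated WT organoids, with 11.60, 11.57, 11.51 and 11.45 log2. It gave 11.60, 11.69, 11.77 and 11.74 in WT with TNFa, 11.57, 11.77, 11.72 and 11.70 in mutant and 11.77, 11.67, 11.70 and 11.73 in mutant with TNFa. Every WT array with TNFa was above every WT array without it, though the nearest pair both round to 11.60, and the difference of 0.17 log2 (SE 0.06, 95% interval 0.05 to 0.29) had an adjusted p of 0.0779. Mutant minus WT without TNFa was 0.16 log2 (adjusted p = 0.229). Krt7 passed the threshold for TNFa in WT under 4 of 28 alternatives, with array weights (adjusted p = 0.0399), the 60th percentile filter (0.0470), a variance trend with robust fitting (0.0141) and without WT + TNFa 1 (0.0459).

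Krt20, the keratin of differentiated colonocytes, gave 11.04, 11.20, 11.27 and 11.33 log2 in WT and 11.29, 11.57, 11.15 and 11.43 in WT with TNFa. It gave 11.08, 11.12, 10.98 and 10.98 in mutant and 11.07, 11.08, 11.30 and 11.18 in mutant with TNFa. Its group means were lowest in mutant and highest in WT with TNFa, but neighbouring groups overlapped. Mutant minus WT was −0.17 log2 without TNFa (95% interval −0.35 to 0.02, adjusted p = 0.427) and −0.20 with TNFa (−0.39 to −0.02, adjusted p = 0.303). TNFa moved it by 0.15 log2 in WT (adjusted p = 0.314) and 0.12 in mutant (0.615).

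**Figure D1:**
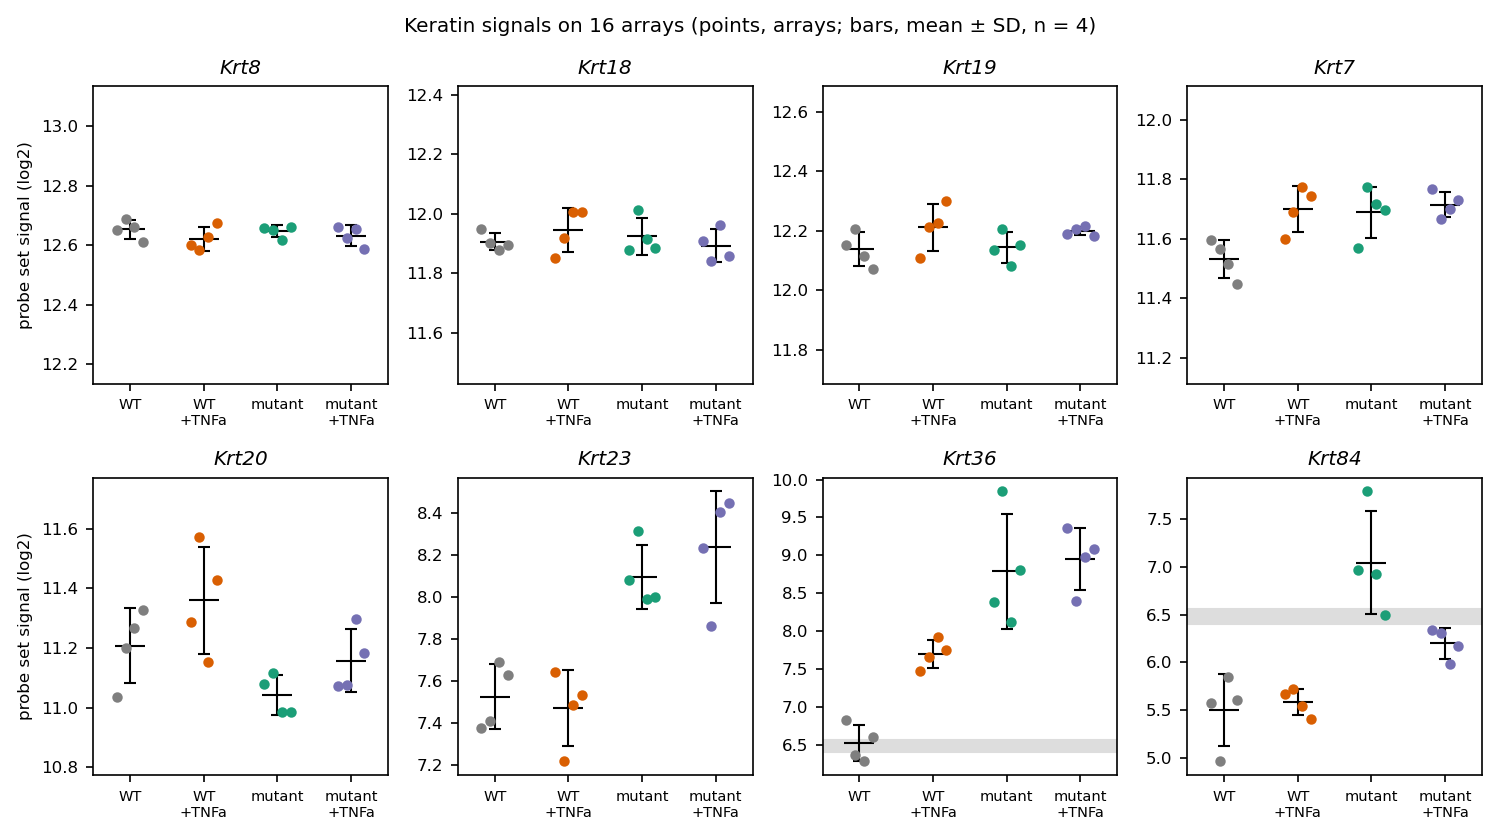
Signal of each keratin (log2, vertical axes, which differ in range between panels) on the 16 arrays of 4 groups; points are arrays, bars the mean ± SD (n = 4), and the grey bands span the 40th percentiles of the arrays, 6.40 to 6.56. Krt19, for one, lies between 12.07 and 12.30 on every array, whereas Krt23, Krt36 and Krt84 are higher in mutant than in WT.

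Krt23 was higher in mutant than in WT organoids both without and with TNFa, and TNFa left it within the spread in either genotype. It gave 7.38, 7.41, 7.69 and 7.63 log2 in WT and 7.65, 7.22, 7.49 and 7.54 in WT with TNFa. It gave 8.08, 8.32, 7.99 and 8.001 in mutant and 8.24, 7.86, 8.41 and 8.45 in mutant with TNFa. All 8 mutant arrays therefore lay above all 8 WT arrays. Without TNFa the mutant was higher by 0.57 log2, or 1.49-fold (SE 0.12, 95% interval 0.31 to 0.83, adjusted p = 0.0164), and with TNFa by 0.77 log2, or 1.70-fold (0.51 to 1.03, adjusted p = 0.00175). The TNFa effect was −0.06 log2 in WT (95% interval −0.32 to 0.21, adjusted p = 0.841) and 0.14 in mutant (−0.12 to 0.40, adjusted p = 0.696). The difference without TNFa lost its call when WT 1 (adjusted p = 0.0573), WT 2 (0.0608) or mutant 2 (0.497 log2, 0.0674) was left out. The difference with TNFa kept its call under all 28 alternatives, though those with other probe set rules could not change its signal.

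Krt36, a type I hair keratin, showed the widest range of the 8 genes. In untreated WT organoids it gave 6.83, 6.37, 6.29 and 6.61 log2, in the dim range on 2 of the 4 arrays, and in WT with TNFa 7.47, 7.66, 7.92 and 7.76. It gave 8.39, 9.85, 8.12 and 8.81 in mutant and 9.36, 8.39, 8.98 and 9.09 in mutant with TNFa. The values ordered the groups as WT, WT with TNFa, and then both mutant groups, which overlapped each other and no WT array. In WT organoids TNFa raised Krt36 by 1.18 log2, or 2.26-fold (SE 0.28, 95% interval 0.59 to 1.76, adjusted p = 0.00949). In mutant organoids TNFa moved it by 0.16 log2 (−0.42 to 0.74, adjusted p = 0.886), or by 0.51 without array mutant 2 (adjusted p = 0.208).

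The genotype difference of Krt36 was 2.27 log2 without TNFa, or 4.82-fold (SE 0.28, 95% interval 1.69 to 2.85, adjusted p = 1.1e-04), the 4th largest change in size among 11766 genes. With TNFa it was 1.25 log2, or 2.38-fold (0.67 to 1.83, adjusted p = 0.0191). The fold against untreated WT is approximate, since 2 of that group's 4 arrays were dim and its mean was 6.53 ± 0.24 log2. Array mutant 2 was the highest of all arrays for Krt36, and without it the difference without TNFa was 1.92 log2 (adjusted p = 4.3e-05). The difference with TNFa was not called without WT + TNFa 1 (adjusted p = 0.0556), mutant + TNFa 1 (0.0754) or mutant + TNFa 4 (0.0615).

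Krt84, a type II hair keratin, was above the array's own 40th percentile on the 4 untreated mutant arrays alone. On mutant 4 it passed narrowly, at 6.495 against 6.481 log2. It gave 5.57, 4.96, 5.85 and 5.61 log2 in WT, 5.66, 5.71, 5.55 and 5.40 in WT with TNFa, 6.97, 7.80, 6.92 and 6.50 in mutant, and 6.34, 6.31, 5.98 and 6.17 in mutant with TNFa. Both mutant groups lay above all WT arrays, and the mutant arrays without TNFa lay above those with it. The gene passed the filter through the untreated mutant group, so it was bound to differ, and its folds set a measured level against dim ones. Mutant minus WT without TNFa was 1.55 log2, or 2.93-fold (SE 0.21, 95% interval 1.10 to 2.00, adjusted p = 3.5e-04), and 1.30 log2 without array mutant 2. TNFa lowered Krt84 in mutant by 0.85 log2, or 1.80-fold (95% interval for the change −1.30 to −0.40, adjusted p = 0.0221), whereas in WT the change was 0.09 (adjusted p = 0.860).

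The fall of Krt84 in mutant rested on few arrays. It was no longer called without mutant + TNFa 3 (adjusted p = 0.0791) or mutant + TNFa 4 (0.0579), and without mutant 2 it was −0.60 log2 (adjusted p = 0.0552, with the genes tested kept as for all 16 arrays). With TNFa the mutant was higher than WT by 0.62 log2 (0.17 to 1.07), with no overlap of the groups and an adjusted p of 0.170. That difference was called when only the groups of the comparison were used (adjusted p = 0.0100). It was also called without mutant 2 with the genes tested kept as for all 16 arrays (adjusted p = 0.0470).

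**Figure D2:**
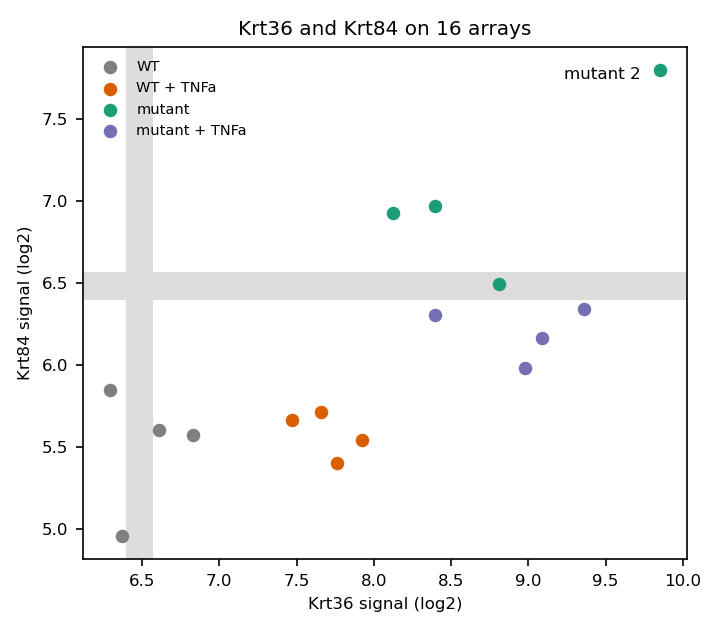
Krt84 signal (log2, vertical axis) against Krt36 signal (log2, horizontal axis) on the 16 arrays, coloured by group, with grey bands at the 40th percentiles of the arrays. The WT arrays with TNFa are shifted along the Krt36 axis alone, and array mutant 2 has the highest signal of both genes, 9.85 and 7.80.

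**Figure D3:**
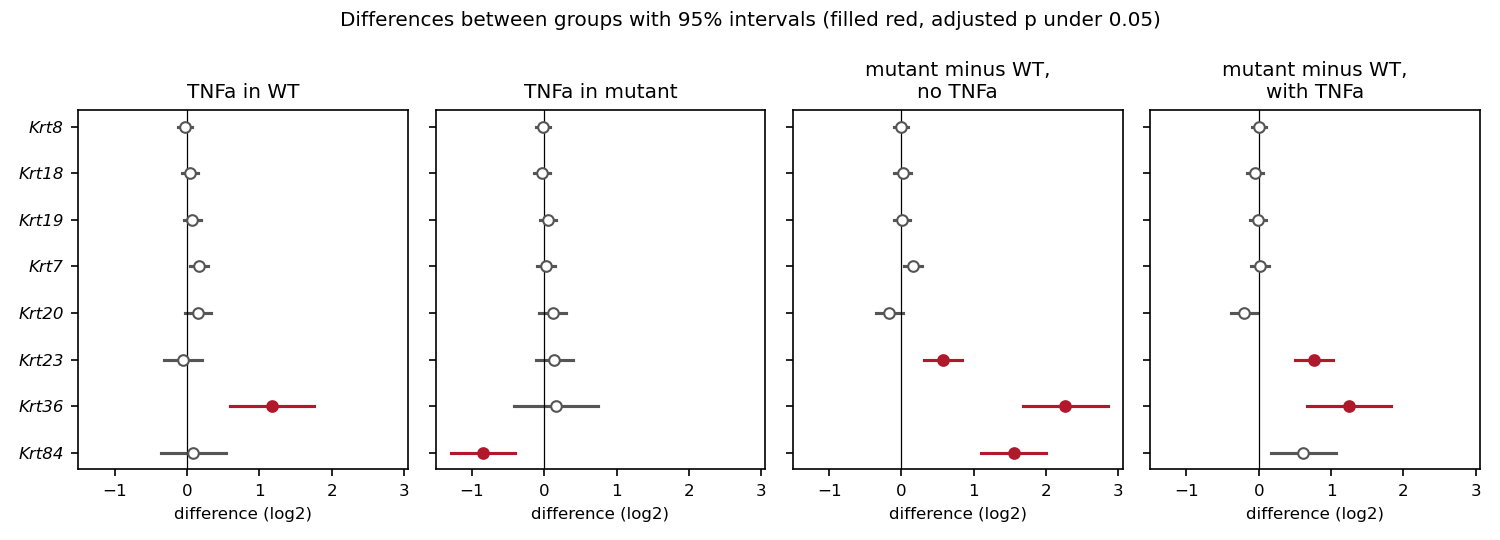
Difference between groups of each keratin (log2, horizontal axes) with its 95% interval, for TNFa in WT, TNFa in mutant, and mutant minus WT without and with TNFa; filled red points have an adjusted p under 0.05. The calls belong to Krt23, Krt36 and Krt84, and the intervals of Krt8, Krt18, Krt19 and Krt7 run from −0.17 to 0.29 at their widest.

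Whether the TNFa effect itself differed between the genotypes was tested as mutant effect minus WT effect. Neither of the hair keratins was called. Krt36 differed by −1.02 log2 (SE 0.39, 95% interval −1.84 to −0.19, unadjusted p = 0.0187, adjusted p = 0.564) and Krt84 by −0.93 (SE 0.30, −1.57 to −0.30, unadjusted p = 0.00649, adjusted p = 0.468). Krt84 passed the filter only through its untreated mutant group, which favours a negative difference, so nothing is read from its p-values. Without array mutant 2 the Krt36 difference was −0.66 and the Krt84 difference −0.68 log2. Krt23 differed by 0.20 log2 (adjusted p = 0.852) and Krt7 by −0.14 (0.769). The rise of Krt36 in WT alone and the fall of Krt84 in mutant alone are therefore not shown to differ between the genotypes after adjustment.

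The 8 keratins also differed in how much they varied among arrays of one group. The within-group SD was 0.056 log2 for Krt19, 0.058 for Krt18, 0.070 for Krt7 and 0.127 for Krt20, near the median gene at 0.121. It was 0.195 for Krt23, 0.348 for Krt84 and 0.456 for Krt36, and for Krt36 the value was at the 99.9th percentile of all tested genes. These values pool 4 groups of unequal spread. In WT, WT with TNFa, mutant and mutant with TNFa the SD was 0.24, 0.19, 0.76 and 0.41 for Krt36. For Krt84 it was 0.38, 0.14, 0.54 and 0.16. The limma fit shared the spread of a gene over the groups, so its SE may be too wide or too narrow for a given comparison. Deviations from the group means moved together for Krt7 and Krt18 (r = 0.73 over 16 arrays), Krt8 and Krt19 (0.68), Krt18 and Krt36 (0.66), Krt18 and Krt19 (0.64), Krt7 and Krt19 (0.60) and Krt7 and Krt36 (0.58). These points share their arrays and their normalisation. For Krt36 and Krt84 r was 0.46, and −0.21 without array mutant 2. Without that array the pairs listed before gave, in the same order, 0.67, 0.72, 0.48, 0.56, 0.53 and 0.47. Those pairs were picked for the highest r after the values were seen. Other pairs were lower or negative over 16 arrays, such as Krt8 and Krt18 (0.45) and Krt7 and Krt20 (−0.30).

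The array held 41 other keratin genes, of which 15 were bright enough to be tested and 26 were not. Krt90 was the only one called, for TNFa in WT, where 10.8% of all tested genes were called. TNFa raised it in WT by 0.37 log2 (adjusted p = 0.0341), from a group mean of 6.85 ± 0.25 to 7.22 ± 0.19, with overlapping groups, and in mutant it was higher by 0.33 log2 (adjusted p = 0.0898). With 0 called between genotypes by limma, 3 of the 15 had an unadjusted p under 0.05 without TNFa and 0 with it. Krt4 and Krt13, paired keratins of the squamous lining of the oesophagus and mouth, are given because their differences were the largest among these genes, a choice made after the values were seen. Krt4 was 1.07 log2 higher in mutant than in WT without TNFa (95% interval 0.33 to 1.82, adjusted p = 0.150) and Krt13 0.70 higher (0.28 to 1.12, adjusted p = 0.0787). Krt13 gave 7.97, 7.63, 7.58 and 7.39 log2 in WT and 7.83, 8.98, 8.34 and 8.24 in mutant, so the groups overlapped through mutant 1.

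The keratins that differed by genotype lie in both keratin clusters. Krt19, Krt20, Krt23 and Krt36 lie in the type I cluster on chromosome 11 and Krt7, Krt8, Krt18 and Krt84 in the type II cluster on chromosome 15, with 27 and 21 keratin genes of the array matched to these chromosomes. The RefSeq gene table places Krt36 between Krt35, which was dim on all 16 arrays, and Krt13. It places Krt23 between Krt20 (−0.17 log2 in mutant without TNFa) and Krt39 (0.01), neither of them called. Krt84 lies next to Krt82, dim on all arrays.

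**Figure D4:**
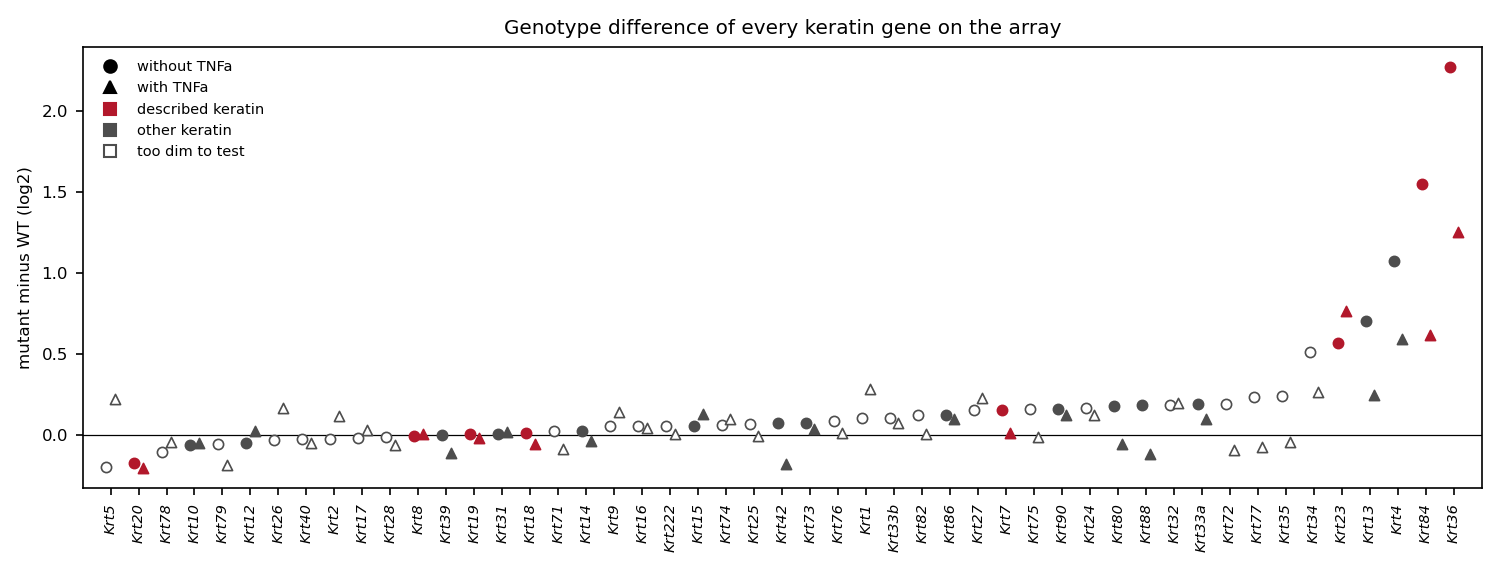
Mutant minus WT (log2, vertical axis) of every keratin gene on the array, ordered by the difference without TNFa; circles are without and triangles with TNFa, red marks the 8 keratins described, grey the other tested keratins, and open symbols genes too dim to test. Krt36 and Krt84 have the largest differences without TNFa, 2.27 and 1.55 log2, followed by Krt4 and Krt13.

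Markers of squamous epithelium were checked because Krt36, Krt84, Krt4 and Krt13 are known from such tissue. Of 22 squamous genes on the array, Krt4 and Krt13 among them, 10 were tested. The basal markers Trp63 and Krt5, the desmosomal genes Dsg1a, Dsg3 and Dsc3, and the cornified envelope gene Ivl were dim on all 16 arrays. Above the dim range on all 16 were 7 genes: the keratins Krt10, Krt13, Krt14 and Krt15, the galectin gene Lgals7, Sfn (14-3-3 sigma, also expressed in other epithelia) and Sbsn. Krt14, a partner of Krt5, had group means of 7.21 to 7.36 log2 and Krt15 of 7.41 to 7.56. The 1 called gene was Sprr1a, another envelope gene, for TNFa in both genotypes, where 10.8% (WT) and 5.98% (mutant) of all genes were called. TNFa raised it by 0.50 log2 in WT and 0.76 in mutant, from the dim range. With 0 called between genotypes by limma, 3 had an unadjusted p under 0.05 without TNFa and 0 with it. The summed linear signal of the 22 genes was 2934 to 3232 in WT, 3326 to 3559 in WT with TNFa, 3328 to 3585 in mutant and 3450 to 3589 in mutant with TNFa. The sum was thus higher in each other group than in untreated WT. It holds Krt4 and Krt13, whose means were 7.05 and 7.64 log2 in WT and 8.13 and 8.35 in mutant. Sfn, the brightest of the 22 genes, had 10.07 in WT and 10.27 in WT with TNFa. Because Krt4 and Krt13 were named for their differences, the sum does not show a shift of the whole list. Its part in the Krt36 and Krt84 results was not tested.

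Markers of cells outside the epithelium were mostly dim. Of 6 endothelial and glial genes on the array 0 were above the dim range on any array. Of 9 fibroblast genes 3 were tested (Col1a1, Pdgfrb and Vim) and of 6 smooth muscle genes 2. Of either list limma called 0 in any comparison, where 0.00850% to 10.8% of all tested genes were called. At an unadjusted p under 0.05 there were 0 fibroblast genes and, for smooth muscle, 1 for TNFa in WT, 1 between genotypes with TNFa and 1 for the difference of the TNFa effects. Of 7 immune genes only Lyz2, a lysozyme gene, was tested. It was lower with TNFa in WT (−0.74 log2, adjusted p = 0.0244), where 10.8% of all genes were called. Lyz2 was also 1.25 log2 higher in mutant than in WT with TNFa (adjusted p = 0.00177), where 2.69% were called. The pan-leukocyte gene Ptprc was above the dim range on 2 of 16 arrays.

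For TNFa in WT, limma called 1 of 13 genes of the filaments' partners and 2 of 14 genes of their junctions, where 10.8% of all genes were called. Of 13 tested genes for other intermediate filaments and proteins acting on keratin filaments, the only call was Pof1b, an actin-binding protein of epithelial junctions, which TNFa lowered in WT by 0.33 log2 (adjusted p = 0.00228). Their median change lay between −0.05 and 0.03 log2 in the 5 comparisons. Of 14 tested genes of desmosomes and hemidesmosomes, the junctions that anchor keratins, 2 were called. Itga6, the integrin chain of hemidesmosomes, was higher with TNFa in WT (0.26 log2, adjusted p = 0.0126) and higher in mutant than in WT without TNFa (0.43 log2, adjusted p = 6.5e-04). Pkp1, a desmosomal plaque protein, was lower with TNFa in WT (−0.28 log2, adjusted p = 0.0310) and higher in mutant than in WT with TNFa (0.35 log2, adjusted p = 0.0249). Of all tested genes, 2.48% were called between genotypes without TNFa and 2.69% with it.

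Genes of colonocyte maturation moved in both directions beside the keratins. Of 27 tested colonocyte genes, 1 was higher and 4 were lower in mutant without TNFa, where 2.48% of all genes were called. With TNFa 2 were higher and 5 lower, where 2.69% of all genes were called. The sodium-hydrogen exchanger Slc9a3 differed by −1.20 log2 without TNFa (SE 0.15, adjusted p = 1.1e-04), and Emp1 differed by −0.48 (adjusted p = 0.00145), while the prostaglandin-degrading enzyme Hpgd was higher by 0.37 (adjusted p = 0.0158). TNFa called 7 higher and 3 lower in WT and 5 higher and 3 lower in mutant, where 10.8% and 5.98% of all genes were called. The uroguanylin gene Guca2b was up by 1.65 log2 in WT and 1.27 in mutant, whereas TNFa changed Hpgd by −1.19 and −1.17. The median of the list was −0.12 log2 for mutant minus WT without TNFa and −0.06 with it, against −0.01 and 0.00 for all genes.

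Of 13 tested crypt genes, TNFa called 2 higher in WT (Sox9 and Ascl2) and 1 in mutant (Sox9). Smoc2 was higher in mutant than in WT with TNFa. At an unadjusted limma p under 0.05 there were 5 for TNFa in WT and 2 in mutant. Between genotypes there were 3 without TNFa and 7 with it. The crypt median for mutant minus WT was 0.09 log2 without TNFa and 0.20 with it, against −0.006 and −0.001 for all genes. Of all tested genes, 10.8% were called for TNFa in WT and 5.98% in mutant. Between genotypes 2.48% were called without TNFa and 2.69% with it. Of 10 goblet genes, TNFa called 2 lower in WT (Reg4 and Muc2), and Reg4, a secreted lectin, was higher in mutant by 0.58 log2 without and 1.26 with TNFa. Reg4 was also the 1 gene of the whole array called for the difference of the TNFa effects (0.69 log2, adjusted p = 0.0344).

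Of 10 tested distal colon genes, 3 were higher and 1 lower in mutant without TNFa, where 2.48% of all genes were called. With TNFa 4 were higher and 0 lower, where 2.69% of all genes were called. The homeobox genes Hoxd10, Hoxd11 and Hoxd13 were higher without TNFa by 1.35, 1.28 and 1.00 log2, and Hoxd12 joined them with TNFa. All genes of this list called higher by genotype thus belong to the Hoxd cluster, which lies beside Atf2. They do not count as separate signs of distal identity. TNFa also raised Hoxd13 and Hoxd11 in both genotypes, where 10.8% of all genes were called in WT and 5.98% in mutant. Cdx2, an intestinal homeobox factor that is also among the epithelial markers, was lower in mutant without TNFa (−0.52 log2, adjusted p = 0.0158). Its group mean without TNFa was 8.99 log2 in WT and 8.46 in mutant. Whether the Hoxd differences come from the altered Atf2 locus was not tested, nor was the part of regional identity or maturation in the keratin differences.

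Among 18 tested transcription factors of the ATF2, AP-1 and NF-kB families or known to act on keratin genes, 2 were lower in mutant without TNFa and 0 were higher. They were Jun (−0.56 log2, adjusted p = 8.6e-04), a partner of ATF2, and Cdx2. TNFa called 1 in WT, the differentiation factor Klf4 (−0.55 log2, adjusted p = 3.3e-04), and 0 in mutant, where 2 had an unadjusted p under 0.05. With TNFa limma called 0 between genotypes and 5 had an unadjusted p under 0.05. Of all tested genes, 2.48% were called between genotypes without TNFa and 2.69% with it. For TNFa 10.8% were called in WT and 5.98% in mutant.

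For each of the 3 keratins that were called, the tested genes with the most similar pattern were found by Pearson correlation of log2 signals over 16 arrays. The arrays fall into 4 groups, so such a correlation reflects shared group differences, and the correlation of deviations from group means is given beside it. Nearest to Krt84 was S100g, the vitamin D dependent calcium-binding protein calbindin-D9k, with r = 0.97, and 0.93 within groups. S100g gave 9.71, 10.15, 9.31 and 8.99 log2 in mutant and 9.09, 9.04, 8.74 and 8.996 in mutant with TNFa, and its mean was 8.05 ± 0.25 in WT and 8.08 ± 0.19 in WT with TNFa. Mutant 2 was again the highest array. S100g was higher in mutant by 1.49 log2 without TNFa (adjusted p = 1.6e-04) and by 0.88 with it (adjusted p = 0.0156), and TNFa moved it in mutant by −0.57 (adjusted p = 0.0982). The anion exchanger Slc26a3 and Dcbld1 followed Krt84 at r = 0.87 each, and at 0.64 and 0.49 within groups.

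Nearest to Krt36 were Panx1, a channel protein that releases ATP (r = 0.92, within groups 0.56), the actin-binding Cotl1 (0.91, within groups 0.83) and R3hdml (0.89, within groups 0.12). Panx1 was 0.58 log2 higher in mutant without TNFa (adjusted p = 4.0e-04) and R3hdml 1.13 higher (adjusted p = 4.8e-06), whereas Cotl1 was not called (0.17 log2, adjusted p = 0.133). TNFa raised R3hdml in WT by 0.50 log2 (adjusted p = 0.00371) and in mutant by 0.38 (adjusted p = 0.0362). Nearest to Krt23 were Smpdl3a, a phosphodiesterase (r = 0.88, within groups 0.37), the surface protein gene Plet1 (0.87, within groups 0.87) and Vtcn1, the immune checkpoint ligand B7-H4 (0.87, within groups 0.37). Smpdl3a was higher in mutant by 0.86 log2 without TNFa (adjusted p = 4.1e-05) and Vtcn1 by 0.74 (adjusted p = 1.1e-04). Plet1 was higher in mutant with TNFa by 1.06 log2 (adjusted p = 0.00351) and was 0.54 higher without it (adjusted p = 0.175). It was also called higher for TNFa in mutant (0.76 log2, adjusted p = 0.0190).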

How the data were processed

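Total RNA of 16 mouse colon organoid samples was amplified and biotin labelled for single-colour Affymetrix arrays, per the labels' protocols. The authors computed the deposited log2 signals with RMA in Affymetrix Expression Console, per the submitters' processing notes. Tool versions, the array design and the build are unknown here. RMA normalises arrays to one another, so a change shared by most genes would not be seen. Genes came from the 18851 of 19825 probe sets with a single symbol. No further normalisation was applied. A gene was tested if above its array's 40th percentile on at least 4 arrays. The groups were compared with limma 3.58.1 (R 4.3.3), in 1 fit to 16 arrays with moderated tests, and p-values were adjusted by Benjamini-Hochberg over 11766 genes in each of 5 comparisons. The limma fit was first tried on simulated data, and the other steps were not. With arrays, the number of samples limits the precision.

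The members and all 14 gene lists were chosen with earlier results of these data known. Named are the 8 keratins, other keratins that were called, for each list and comparison the called genes of smallest p, at most 4, and the 3 genes most like each called keratin. From most lists only some of these are named. Krt4 and Krt13 were added after their values were seen, as were marker genes given as dim or tested. Replicate numbers were checked for pairing: same-numbered arrays of different groups correlated at −0.3051 to 0.2481 in their deviations, above 0.1 in 3 of 16 pairs, so the numbers were not used to pair. The alternatives were other filters, probe set rules, variance models, weights, normalisations and blocks, only the groups compared, and leaving out each array. Other probe set rules could not change a keratin's signal, so those runs do not test a keratin result. RefSeq promoter windows matched 7 of the 8 keratins.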

Additional observations from a re-analysis of the deposited data

How the results depend on the processing

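Over 1102 values of the 8 keratins under the alternatives, 1087 kept their side of the threshold, 9 lost a call, 6 gained one and 0 called values changed sign, while 28 values that were not called did. Of 192 alternatives to the 7 called keratin results, 183 kept the call. Runs in which Krt84 was too dim to be tested are not among the 192, though it could not be called in them. Runs with the tested genes held fixed for Krt84 are among them. The 1102 and the 192 also hold runs with other probe set rules, which could not change a keratin's signal. The 1087 and the 183 are therefore not full rates of values or calls kept. The cause of the changes was not tested. For TNFa in WT the keratin count was 2 with the 60th percentile filter, the variance trend with robust fitting and array weights. For TNFa in mutant it was 0 with the 60th percentile filter, which leaves Krt84 untested, and without both WT + TNFa 2 and mutant 2, an alternative chosen after seeing the data. Over all genes, array weights called 1095 for TNFa in mutant, 443 for genotype without TNFa and 617 with it. With only the groups compared, 720 were called for TNFa in WT and 185 for genotype with TNFa. For the difference of TNFa effects the count over all genes was 3 with the 60th percentile filter, 5 with the variance trend, 3 with array weights, 0 with the replicate block and 0 without both arrays. The replicate block, with numbers 1 to 4 as a fixed factor, changed no keratin count, and as a random effect its correlation was −0.0673. Leaving out 1 array at a time, the keratin counts ran from 1 to 2 for TNFa in WT, 0 to 1 for TNFa in mutant, 1 to 3 for genotype without TNFa, 1 to 2 with it and 0 to 0 for the difference. The counts over all genes ran from 954 to 1429, 501 to 899, 197 to 434, 191 to 339 and 0 to 4. Krt84 could not be tested without any 1 mutant array unless the tested genes were held fixed, an alternative also added after seeing the data. Signals of Krt84 outside the untreated mutant group, and of Krt36 in untreated WT, lay in or near the dim range, which limits their folds.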
